A study of Homo sapiens with 6 samples.

Results

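The tubulin genes described here were chosen by name with earlier values of these arrays in view: TUBA1A, TUBA1B, TUBA1C and TUBA4A for α-tubulin, TUBB, TUBB2A, TUBB3, TUBB4B and TUBB6 for β-tubulin, and TUBG1 for γ-tubulin. Of these 10 genes, 9 had an intact row of their own among the 22376 genes measured, and each was represented by its transcript cluster, the array's unit of a gene, with the highest mean. TUBB3, the β-tubulin known from neurons, shares its cluster with another gene symbol and was not analysed here. The other 7 rows named TUBB had lost their decimal points and were not used, which left 1 row for each of the 9 genes.

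DLD-1 is an established line from a human colorectal adenocarcinoma, and total RNA of its subclones was measured on 6 Affymetrix arrays, 3 labelled Δα-Cat and 3 labelled α-Cat. Both groups had grown in a 3D gel of collagen type I (1 mg/ml) for 96 h, and neither received a treatment. The names are read here as α-catenin, which the labels do not spell out, and nothing in the labels tells how many clones make up a group or what altered the gene. Separate cultures for the 3 arrays of a group are not stated either, so p-values reflect only the spread between these arrays, which could be technical. CTNNA1, which encodes the αE-catenin that ties cadherins to actin, stood at 6.55, 6.52 and 6.41 on the log2 scale in the Δα-Cat arrays, against 7.79, 7.68 and 7.71 in the α-Cat arrays (log2 difference -1.23, SE 0.06, adjusted p = 0.00212 from limma). Array medians over all clusters ran from 4.02 to 4.07. The mean levels of all 11 epithelial markers, among them KRT8 and CDH1, lay above 4.43, the 95th percentile of 364 olfactory receptor genes, which serves here as a level of background. For fibroblast markers 4 of 8 and for neuronal markers 5 of 10 lay above it. In either direction 0 markers of these 3 lists passed the test, where 0.626% of all genes did. At an unadjusted p under 0.05 there were 4 higher and 1 lower epithelial, 0 fibroblast and 0 neuronal ones. Of all genes 13.1% had such a p.

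Microtubules are polymers of α-tubulin and β-tubulin dimers, and each of these proteins is encoded by several genes whose products differ mainly in their acidic tails. γ-Tubulin is not part of the polymer wall but sits in a ring complex that starts new microtubules. Newly made tubulin is folded by the chaperones prefoldin and CCT and joined into dimers by dedicated cofactors, and cells degrade α- and β-tubulin mRNA when free dimers build up. In intestinal epithelia microtubules support transport between cell poles, and in dividing cells they form the spindle.

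All 9 measured tubulin genes had a lower mean in Δα-Cat than in α-Cat cells, by 6.3% for TUBB6 at the least and 22.7% for TUBA1B at the most. A lower mean in Δα-Cat was found for 50.2% of all genes. The log2 differences, Δα-Cat minus α-Cat, had a median of -0.30 and ran from -0.37 to -0.09. RMA brings the arrays to a common distribution, so medians near 0 over many genes follow from the processing. The median over all 22376 genes was -0.0005 and that over the 14786 genes above the olfactory receptor level was -0.004. A difference at or below the tubulin median was found in 2.09% of all genes and in 2.78% of the genes above that level. Because the values of this comparison were known when the genes were chosen, they are given as a description, and no test is read for them. In RNA from whole cultures, fewer cells of a kind and less RNA per cell cannot be told apart.

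For 5 of the 9 genes every Δα-Cat array lay below every α-Cat array, where 12.3% of genes above the olfactory receptor level did so. Arrays of the same replicate number gave a lower value in Δα-Cat for all 9 genes in all 3 pairs. Of genes above that level 21.8% were lower in all 3 pairs. The 27 tubulin differences come from the same 3 pairs of arrays, so they are not independent. In limma's fit over all clusters, which also holds these genes, 0 of the 9 were called at an adjusted p under 0.05. Over all genes 0.626% were called. The fit with the replicate number as a block called 0 of the 9 as well, and 0.425% of all genes. The choice of the genes used this comparison, so nothing is read from these counts.

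**Figure D1:**
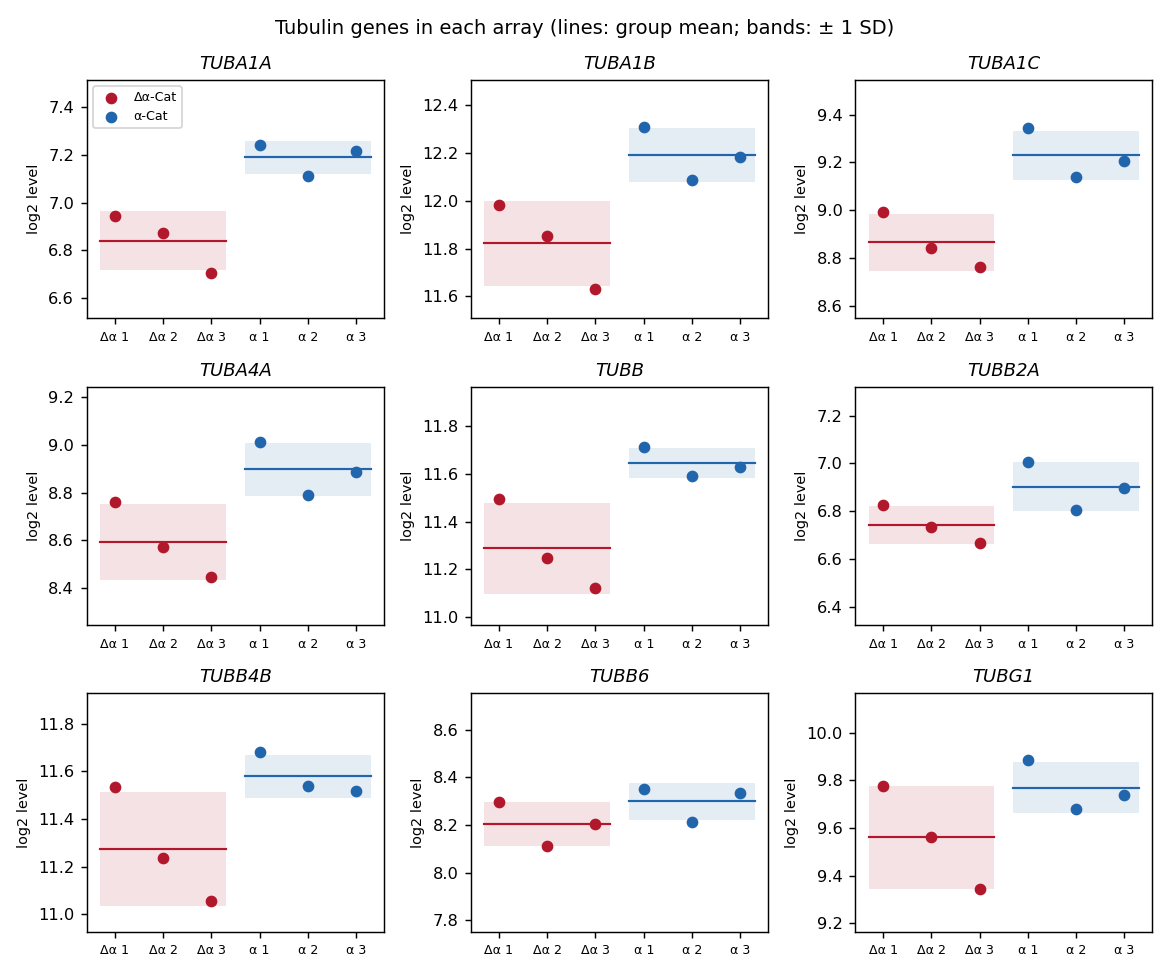
Log2 level (vertical axis, spanning 1 log2 unit in each panel) of the 9 tubulin genes in the 3 Δα-Cat arrays (red, left) and the 3 α-Cat arrays (blue, right); lines are group means and bands ± 1 SD. In the panels of the 4 α-tubulin genes and TUBB all red points lie below all blue points.

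The α-tubulin genes had differences between -0.37 and -0.30, and the groups did not overlap in any of the 4. TUBA1B, a widely expressed α-tubulin of dividing and resting cells, read 11.98, 11.85 and 11.63 in Δα-Cat, against 12.31, 12.09 and 12.18 in α-Cat. Its highest Δα-Cat array lay just under its lowest α-Cat array. The group means were 11.82 ± 0.18 and 12.19 ± 0.11 (SD, n = 3 each), a ratio of 0.773. TUBA1C, a closely related α-tubulin, read 8.99, 8.84 and 8.76 in Δα-Cat, against 9.34, 9.14 and 9.20 in α-Cat, a difference of -0.36. TUBA1A, the α-tubulin best known from developing neurons, read 6.95, 6.87 and 6.70 in Δα-Cat, against 7.24, 7.11 and 7.22 in α-Cat, a difference of -0.35. These 3 genes follow one another among the protein-coding genes of chromosome 12, with TUBA1A between TUBA1B and TUBA1C. TUBA4A, whose gene does not encode the final tyrosine that most other α-tubulins carry, read 8.76, 8.57 and 8.45 in Δα-Cat, against 9.01, 8.79 and 8.89 in α-Cat, a difference of -0.30. The gap between its highest Δα-Cat array and its lowest α-Cat array was the narrowest of the 4.

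The β-tubulin genes were spread more widely, with differences between -0.36 and -0.09 and a median of -0.23, against -0.36 for the α-tubulin genes. TUBB, the general β-tubulin of proliferating cells, read 11.49, 11.25 and 11.12 in Δα-Cat, against 11.71, 11.59 and 11.63 in α-Cat, and was the only 1 of the 4 β-tubulin genes whose groups did not overlap. Its means were 11.29 ± 0.19 in Δα-Cat and 11.65 ± 0.06 in α-Cat (SD, n = 3 each), a ratio of 0.781. TUBB4B, another broadly expressed β-tubulin that is also used in cilia, read 11.53, 11.23 and 11.06 in Δα-Cat, against 11.68, 11.54 and 11.52 in α-Cat, a difference of -0.30 that was -0.20 without Δα-Cat replicate 3. Here Δα-Cat replicate 1 reached into the α-Cat range, and the Δα-Cat arrays had the largest SD of any tubulin gene, 0.24 against 0.09 in α-Cat. TUBB2A, a β-tubulin prominent in brain, read 6.83, 6.73 and 6.67 in Δα-Cat, against 7.01, 6.80 and 6.90 in α-Cat, a difference of -0.16. TUBB6, a divergent β-tubulin, read 8.30, 8.11 and 8.20 in Δα-Cat, against 8.35, 8.21 and 8.33 in α-Cat. Its groups overlapped, and its difference of -0.09 was about as large as the SD within each group, 0.09 in Δα-Cat and 0.08 in α-Cat. Without Δα-Cat replicate 2 it was -0.05.

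TUBG1, the γ-tubulin of the ring complex, read 9.77, 9.56 and 9.34 in Δα-Cat, against 9.89, 9.68 and 9.74 in α-Cat. The means were 9.56 ± 0.22 in Δα-Cat and 9.77 ± 0.11 in α-Cat (SD, n = 3 each), a difference of -0.21, and Δα-Cat replicate 1 lay above 2 of the 3 α-Cat arrays. The difference was -0.10 without Δα-Cat replicate 3 and -0.32 without Δα-Cat replicate 1. Tubulin genes of a family are close copies of each other, so a probe may read RNA of a relative or of a pseudogene, and the separate values of TUBA1A, TUBA1B and TUBA1C and those of TUBB, TUBB2A and TUBB4B are uncertain to that extent.

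**Figure D2:**
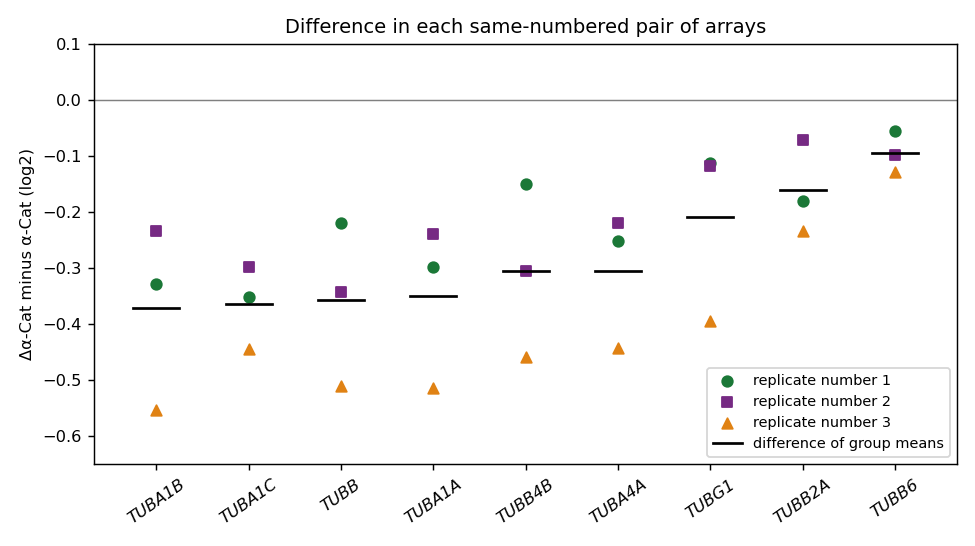
Log2 difference, Δα-Cat minus α-Cat, between arrays of the same replicate number (symbols) and between group means (black bars) for each tubulin gene, ordered by the difference of means. All 27 symbols lie below 0, and number 3 (triangles) is the lowest for every gene.

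The size of the difference varied with the replicate number. Between the arrays numbered 3 it was the largest for 9 of 9 genes, with a median of -0.45 and a range of -0.55 to -0.13. Numbers 1 and 2 gave medians of -0.22 and -0.23. The median difference over all genes in these pairs, which RMA holds near 0, was 0.021, -0.021 and 0.002 for numbers 1, 2 and 3.

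Within each group the tubulin genes also deviated together, a pattern that the difference of group means does not use. The differences of same-numbered pairs were in view when the genes were chosen, so the counts below are a description only. Among the Δα-Cat arrays replicate 1 was the highest for 9 of 9 tubulin genes, as it was for 41.2% of all genes, and replicate 3 the lowest for 8 of 9, as for 31.9% of all genes. The exception was TUBB6, lowest in replicate 2. Among the α-Cat arrays replicate 1 was again the highest for 9 of 9, as for 31.1% of all genes, and replicate 2 the lowest for 8 of 9, as for 31.4% of all genes. There the exception was TUBB4B, lowest in replicate 3. After each gene was centred on its mean over the 6 arrays, the tubulin median stood at 0.02, -0.16 and -0.31 in the Δα-Cat arrays and at 0.25, 0.08 and 0.14 in the α-Cat arrays. Δα-Cat replicate 1 and α-Cat replicate 2 were thus only 0.06 apart by these medians, and Δα-Cat replicate 3 stood farthest from both. The groups did not overlap in 9 of 9 genes when Δα-Cat replicate 1 was left out, where 21.4% of genes above the olfactory receptor level did not. Without any 1 of the other arrays the count ran from 5 to 7, against 15.4% to 17.8% of those genes.

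Genes of the mitotic spindle and of G2/M, the cycle phases in which the spindle is built, lay lower in the same arrays. All 27 measured genes of this list had a negative difference, as did 50.2% of all genes. The median of the list was -0.36 and the range -0.68 to -0.14. Their centred medians were -0.02, -0.23 and -0.34 in the Δα-Cat arrays and 0.37, 0.04 and 0.19 in the α-Cat arrays, so that replicate 1 was the highest in each group, as for tubulin. In limma's fit 0 of 27 were called, with 21 at an unadjusted p under 0.05, all of them lower. Over all genes 0.626% were called and 13.1% had an unadjusted p under 0.05. With the replicate block 0 of the 27 were called, and 0.425% of all genes. The list was chosen with earlier results of these data known, so nothing is read from these counts. CDC25C, the phosphatase that activates the mitotic kinase, had a difference of -0.53 (SE 0.09, adjusted p = 0.0978), and KIF14, a kinesin of cytokinesis whose mean level did not exceed the olfactory receptor level, of -0.47 (SE 0.09, adjusted p = 0.113). The part of this shift in the tubulin values was not tested.

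**Figure D3:**
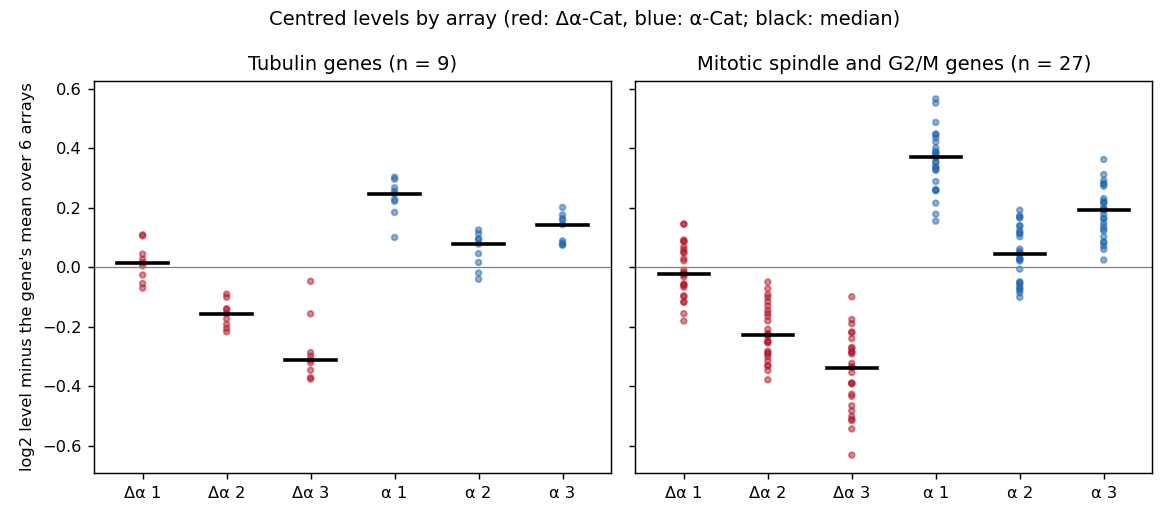
Log2 level minus each gene's mean over the 6 arrays (vertical axis) in every array for the 9 tubulin genes and the 27 mitotic spindle and G2/M genes; dots are genes (red Δα-Cat, blue α-Cat) and black bars medians. In both panels replicate 1 is the highest array of each group, Δα-Cat replicate 3 the lowest of the 6, and the medians are widest apart between Δα-Cat replicate 3 and α-Cat replicate 1.

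Of the 22367 other genes, the 5 whose centred values lay nearest to the tubulin median, by root mean square difference over the 6 arrays, were RNASEH2A at 0.020, RACGAP1 at 0.028, GOT2 at 0.029, CDCA8 at 0.032 and UBE2C at 0.033 log2 units. RNASEH2A encodes the catalytic subunit of ribonuclease H2 and GOT2 the mitochondrial aspartate aminotransferase. RACGAP1 acts in the central spindle, CDCA8 is a subunit of the chromosomal passenger complex, and UBE2C is the ubiquitin-conjugating enzyme of the anaphase-promoting complex. RNASEH2A read 8.82, 8.68 and 8.53 in Δα-Cat, against 9.06, 8.93 and 8.96 in α-Cat, and RACGAP1 read 7.69, 7.52 and 7.35 in Δα-Cat, against 7.97, 7.73 and 7.78 in α-Cat. By the same measure the tubulin genes themselves lay between 0.018 for TUBA4A and 0.136 for TUBB6, and 1630 other genes lay no farther away than TUBB6. The tubulin median holds the group difference that was in view when the genes were chosen. Nothing is therefore read from this likeness.

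**Figure D4:**
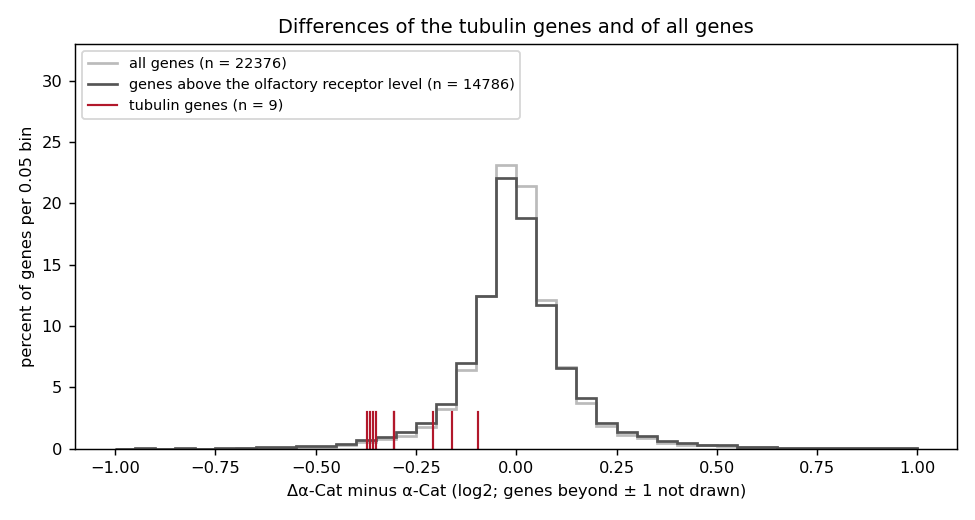
Percent of genes (vertical axis) by log2 difference, Δα-Cat minus α-Cat, in bins of 0.05, for all 22376 genes (light line) and the 14786 genes above the olfactory receptor level (dark line), with the 9 tubulin genes as red marks. Both distributions peak near 0, and the red marks stand between -0.37 and -0.09.

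The start regions of the tubulin genes are given as a description. The RefSeq promoter table (GRCh38.p14) holds 15 start windows for the 10 genes, and the 250 bases before each start were searched on both strands for CCAAT, the letters of the CCAAT box, TATAA, those of the TATA box, GGGCGG, those of the GC box, and TTTGAA, those of the cell cycle genes homology region. Windows of a gene can overlap, so a gene was counted once if any of its windows held a match. The 27305 genes of the table hold 35116 windows. A gene with more windows has more room for a match, which the shares below do not take into account. Of the 9 measured genes, 6 held CCAAT, against 37.0% of all 27305 genes in the table, and 4 held TATAA, against 22.5%. GGGCGG was held by 7 of the 9, against 46.2% of all genes, and TTTGAA by 2 of the 9, against 16.1%. Shown 5′ to 3′ on the gene's own strand, with CCAAT and TATAA matches on either strand in capitals, are the 3 neighbouring α-tubulin genes, which had some of the largest differences, TUBB4B, which holds the most CCAAT matches, and TUBB6, which had the smallest difference. The windows are chr12:49189081-49189330 on the minus strand for TUBA1A, chr12:49131396-49131645 on the minus strand for TUBA1B, chr12:49264832-49265081 on the plus strand for TUBA1C, chr9:137241037-137241286 on the plus strand for TUBB4B and chr18:12307991-12308240 on the plus strand for TUBB6. For TUBA1C and TUBB6 the window with the most matches was taken.
TUBA1A: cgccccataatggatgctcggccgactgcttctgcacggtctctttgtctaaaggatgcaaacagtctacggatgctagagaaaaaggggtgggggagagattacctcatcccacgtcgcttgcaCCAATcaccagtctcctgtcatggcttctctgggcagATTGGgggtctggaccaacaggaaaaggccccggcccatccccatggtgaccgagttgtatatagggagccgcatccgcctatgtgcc
TUBA1B: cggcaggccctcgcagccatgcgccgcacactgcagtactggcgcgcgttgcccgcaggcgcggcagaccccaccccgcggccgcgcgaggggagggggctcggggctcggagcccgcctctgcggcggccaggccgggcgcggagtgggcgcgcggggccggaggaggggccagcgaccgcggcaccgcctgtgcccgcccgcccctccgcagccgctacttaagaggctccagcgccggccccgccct
TUBA1C: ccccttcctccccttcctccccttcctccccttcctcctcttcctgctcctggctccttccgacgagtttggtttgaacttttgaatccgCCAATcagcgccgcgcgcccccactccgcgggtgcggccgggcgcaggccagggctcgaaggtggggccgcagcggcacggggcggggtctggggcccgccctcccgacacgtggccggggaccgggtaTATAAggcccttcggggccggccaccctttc
TUBB4B: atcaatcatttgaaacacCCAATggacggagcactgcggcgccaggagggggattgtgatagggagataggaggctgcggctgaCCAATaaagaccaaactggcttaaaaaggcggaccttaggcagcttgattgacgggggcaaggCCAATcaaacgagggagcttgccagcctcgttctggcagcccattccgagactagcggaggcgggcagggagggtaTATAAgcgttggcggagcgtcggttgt
TUBB6: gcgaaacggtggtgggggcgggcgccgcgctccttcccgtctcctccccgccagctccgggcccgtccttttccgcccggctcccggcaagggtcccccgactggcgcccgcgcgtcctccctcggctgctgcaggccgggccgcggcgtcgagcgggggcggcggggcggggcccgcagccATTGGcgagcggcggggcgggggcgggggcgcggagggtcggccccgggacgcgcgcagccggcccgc

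TUBB4B held 3 CCAAT matches and 1 TATAA match, which began 27 bases before the start. TUBA1C held 1 of each, with TATAA beginning 31 bases before the start, and TUBA1A held 2 CCAAT matches. TUBA1B held neither, and TUBB6 held 1 CCAAT match. G and C made up 81.2% of the TUBA1B window and 83.6% of the TUBB6 window, against 56.4% for TUBA1A, 70.8% for TUBA1C and 56.8% for TUBB4B. These 5 windows were picked partly by their matches and by the differences of their genes. A relation between motif letters and the size of the difference was not tested.

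The remaining tubulin genes of the genome were set beside these. Of 14, 9 had an intact row of their own. Of these 9, 0 were called, with 2 lower ones at an unadjusted p under 0.05 and 0 called with the replicate block. Among all genes 0.626% were called and 13.1% had an unadjusted p under 0.05. Their median difference was -0.05, with 6 below 0 and 3 above, where 50.2% of all genes were below 0. TUBB4A, a β-tubulin of brain, read 6.32, 6.12 and 6.27 in Δα-Cat, against 6.52, 6.48 and 6.46 in α-Cat, without overlap (log2 difference -0.25, SE 0.07, adjusted p = 0.258). TUBA4B, the neighbour of TUBA4A, had a difference of -0.26 (SE 0.10, adjusted p = 0.449), and TUBG2, the second γ-tubulin, of -0.18 (SE 0.10, adjusted p = 0.609). TUBD1 and TUBE1, the δ- and ε-tubulins of centrioles, had differences of -0.05 (SE 0.17) and 0.15 (SE 0.08), and the level of TUBE1 did not exceed that of olfactory receptors in either group. The differences of TUBA3E, TUBAL3 and TUBB2B were -0.12 (SE 0.08), -0.00 (SE 0.07) and 0.06 (SE 0.06). TUBB1, the β-tubulin of platelets, also lay below that level, at 4.05 ± 0.08 in Δα-Cat and 4.03 ± 0.01 in α-Cat (SD, n = 3 each).

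**Figure D5:**
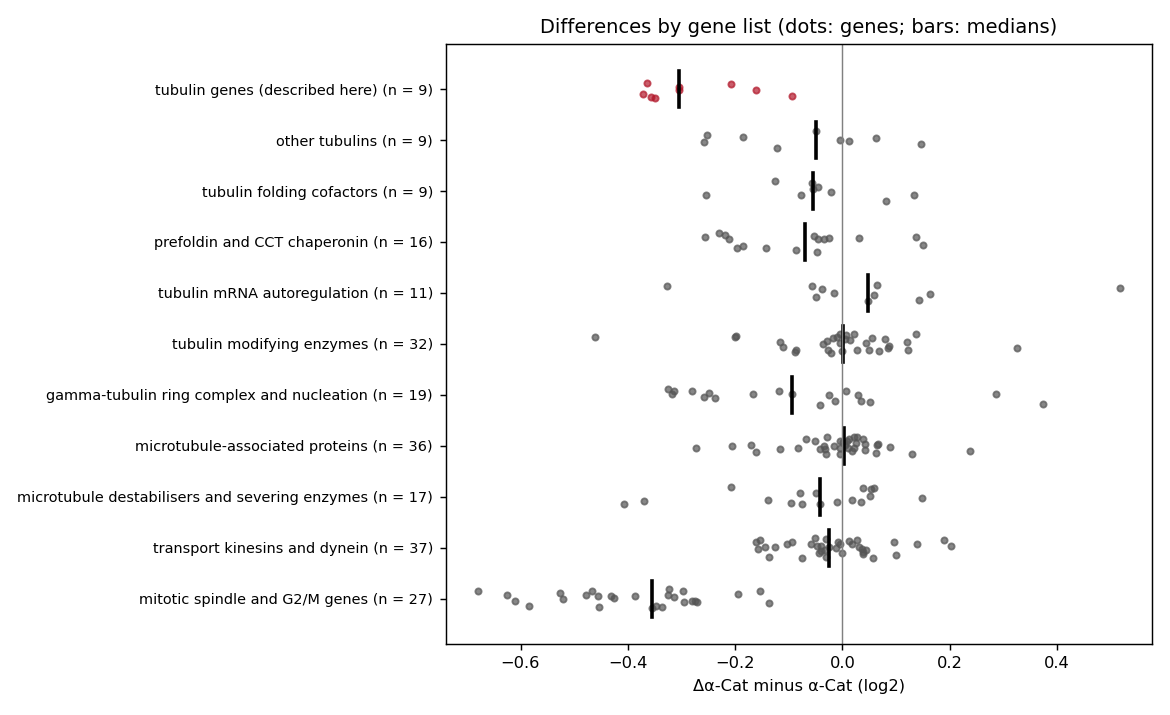
Log2 difference, Δα-Cat minus α-Cat (horizontal axis), of every measured gene in the tubulin set (top, red) and in 10 other lists (grey); black bars are medians. The medians of the tubulin genes, -0.30, and of the mitotic spindle and G2/M genes, -0.36, lie to the left, and those of the other lists between -0.09 and 0.05.

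No tubulin folding gene was called over all clusters. The cofactor list had 9 measured genes, among them TBCK and ARL2BP, which are not themselves folding cofactors. Of these 9 genes 0 were called, with 2 lower ones at an unadjusted p under 0.05, and the median difference was -0.05. Among all genes 0.626% were called and 13.1% had an unadjusted p under 0.05. TBCB, which captures and hands on α-tubulin, read 8.49, 8.48 and 8.54 in Δα-Cat, against 8.78, 8.79 and 8.71 in α-Cat (log2 difference -0.25, SE 0.05, adjusted p = 0.147). TBCB was called when only clusters with 1 symbol were tested (adjusted p = 0.0371). TBCD, a β-tubulin cofactor, had a difference of -0.12 (SE 0.05, adjusted p = 0.485). Of 16 prefoldin and CCT genes 0 were called and 6 were lower at an unadjusted p under 0.05. A negative difference was found in 13 of the 16, with a median of -0.07, and in 50.2% of all genes. In 7 of these 16 every Δα-Cat array lay below every α-Cat array, where 12.3% of genes above the olfactory receptor level did so. These were 7 of the 8 measured genes with a CCT symbol, all but CCT6B, with differences from -0.26 to -0.14, an observation made after their values were seen. The CCT subunit gene CCT6A had a difference of -0.26 (SE 0.07, adjusted p = 0.269) and CCT4 of -0.21 (SE 0.07, adjusted p = 0.346).

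Genes of tubulin mRNA decay comprise TTC5, which recognises nascent tubulin on the ribosome, its partner SCAPER and the CCR4-NOT deadenylase. Of the 11 measured, 0 were called, with 3 higher and 1 lower at an unadjusted p under 0.05. Among all genes 0.626% were called and 13.1% had an unadjusted p under 0.05. CNOT1, the scaffold of CCR4-NOT, read 9.18, 9.14 and 9.09 in Δα-Cat, against 8.68, 8.49 and 8.70 in α-Cat, without overlap (log2 difference 0.52, SE 0.07, adjusted p = 0.0517). It passed with trended, robust eBayes (adjusted p = 0.0483), with single-symbol clusters only (0.0137) and with clusters above the olfactory receptor level only (0.0243). CNOT6, a deadenylase of the same complex, had a difference of -0.33 (SE 0.07, adjusted p = 0.165).

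Among 32 genes of enzymes that modify tubulin, 1 was called, where 0.626% of all genes were. TTLL12, a member of the tubulin tyrosine ligase-like family, read 8.83, 8.76 and 8.73 in Δα-Cat, against 9.19, 9.19 and 9.33 in α-Cat. It fell by 0.46 on the log2 scale (SE 0.06, adjusted p = 0.0474 from limma), with an adjusted p = 0.0996 with the replicate block. The call was also lost with cyclic loess (adjusted p = 0.0565) and without any 1 of the 6 arrays, with adjusted p-values from 0.0941 without Δα-Cat replicate 1 to 0.195 without Δα-Cat replicate 2. The other 31 did not pass, and the median difference of the list was 0.00.

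Of 19 genes of the γ-tubulin ring complex and of nucleation 0 were called, and the median was -0.09. At an unadjusted p under 0.05 there were 2 higher and 5 lower. Among all genes 0.626% were called and 13.1% had such an unadjusted p. TUBGCP5, a ring complex subunit, had higher values in all 3 Δα-Cat arrays, 5.72, 5.80 and 5.80, against 5.42, 5.30 and 5.48 in α-Cat (log2 difference 0.37, SE 0.06, adjusted p = 0.0908). It was called with single-symbol clusters only (adjusted p = 0.0239) and with clusters above the olfactory receptor level only (0.0412). CEP152, a centriole duplication protein, had a difference of -0.32 (SE 0.07, adjusted p = 0.158, and 0.0492 with single-symbol clusters only).

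Genes of proteins that bind, sever or travel on microtubules showed no call, where 0.626% of all genes were called. The counts below at an unadjusted p under 0.05 stand beside 13.1% of all genes. Of 36 microtubule-associated protein genes 0 were called, with 1 higher and 3 lower at an unadjusted p under 0.05 and a median of 0.00. CAMSAP2, which holds microtubule minus ends, had a difference of 0.24 (SE 0.09, adjusted p = 0.461) and MAP2, a neuronal stabiliser, of -0.17 (SE 0.06, adjusted p = 0.43). Of 17 destabiliser and severing enzyme genes 0 were called, with 1 higher and 3 lower at an unadjusted p under 0.05. KIF2C, the depolymerising kinesin of the mitotic centromere, had a difference of -0.41 (SE 0.11, adjusted p = 0.269) and FIGNL1, a relative of the severing enzyme fidgetin, of -0.21 (SE 0.06, adjusted p = 0.269). Of 37 genes of transport kinesins, dynein and dynactin 0 were called, with 2 higher and 3 lower at an unadjusted p under 0.05. DCTN4, a dynactin subunit, had a difference of 0.20 (SE 0.07, adjusted p = 0.43) and DYNLL2, a dynein light chain, of 0.19 (SE 0.08, adjusted p = 0.497).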

How the data were processed

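The deposited values are RMA values per transcript cluster that the authors obtained in Affymetrix Expression Console, per the submitters' processing notes; versions and settings are not given in the sources used here. Their scale is not stated and was taken as log2. In the units of the deposited table they count as a score, because 4987 of its 70513 rows held values without a decimal point, up to 999; these were left out, and the other 65526 clusters were tested. The 6 per-sample columns of a second deposited table match no label and were not used.

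Genes were named from the platform annotation, with symbols updated through RefSeq (GRCh38.p14). Differences are Δα-Cat minus α-Cat, fitted with limma 3.58.1 in R 4.3.3 (lmFit, eBayes, no covariate) with Benjamini-Hochberg adjustment over all 65526 clusters; a call is an adjusted p under 0.05. Python 3.11.15 with pandas 2.3.3 and numpy 2.4.6 was used for tables and matplotlib 3.10.9 for plots. The number of arrays, 3 per group, limits the precision.

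Members and lists were chosen with earlier results of these data known. Named genes are all members, CTNNA1, up to 4 called genes of each list or otherwise the 2 with the smallest p, the other tubulin genes, and the 5 genes most like the members. Residuals of same-numbered arrays correlated at 0.219, 0.214 and 0.128 over clusters for numbers 1, 2 and 3. For differently numbered arrays of the 2 groups the correlations ran from -0.163 to -0.036. Residuals sum to 0 within each group, so these values are not independent. No label explains the numbers. The main fit left them out, and the fit with the replicate block took them to pair the arrays. Alternatives were median centring, cyclic loess, trended robust eBayes, the replicate block, single-symbol clusters only, clusters above the olfactory receptor level only, the mean of all rows of a gene, and leaving out each array. Tubulin protein sequences were not analysed here.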

Additional observations from a re-analysis of the deposited data

How the results depend on the processing

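The median difference of the 9 tubulin genes stayed between -0.403 and -0.231 over 10 alternatives. The replicate block and the mean of all rows leave these differences unchanged by design, as each tubulin gene has 1 row. All 90 alternative values of single tubulin genes lay within 1 replicate SD of the value reported. Leaving out 1 of 3 arrays cannot move a difference farther than that SD, so nothing is read from this. All 90 were below 0, although 4 of them differed from the value reported by over 1.5 times. These were TUBG1 at -0.10 without Δα-Cat replicate 3 and -0.315 without Δα-Cat replicate 1, TUBB6 at -0.049 without Δα-Cat replicate 2 and TUBB4B at -0.196 without Δα-Cat replicate 3, against -0.208, -0.095 and -0.305 with all arrays. Over all clusters 224 were called, 662 with single-symbol clusters only, 483 with clusters above the olfactory receptor level only, 156 with the replicate block and 29 to 120 without 1 array. The count of tubulin genes without overlap, an alternative chosen after seeing the data, ran from 5 to 9. With single-symbol clusters only, calls were 1 for folding cofactors, 1 for mRNA decay, 2 for the γ-tubulin ring complex and nucleation and 3 for G2/M genes. With clusters above the olfactory receptor level only they were 1 for mRNA decay, 1 for the ring complex and 1 for G2/M genes, and trended, robust eBayes called 1 gene of mRNA decay. Modifying enzymes had 0 calls with cyclic loess, with the replicate block and without any 1 array (lowest and highest 0). Without 1 array the neuronal marker NEFH, at -0.06 with all arrays, ran from -0.119 to 0.002 and SYP, at -0.04 with all arrays, from -0.073 to 0.009. The cause of each change was not tested, except that fewer clusters or arrays enter some of these fits. The replicate block changed no other call among the lists.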

Other observations

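Rows named for 3 tubulin pseudogenes, chosen after their values were seen, did not pass the test. TUBBP1 read 9.51, 9.20 and 9.23 in Δα-Cat, against 10.02, 9.66 and 9.78 in α-Cat (log2 difference -0.51, SE 0.12, adjusted p = 0.197 from limma). TUBBP5 had a difference of -0.14 (SE 0.05, adjusted p = 0.468) and TUBA3FP of 0.03 (SE 0.09, adjusted p = 0.962). Whether these rows read RNA of the parent genes was not tested.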
